A study of Homo sapiens with 18 samples.

Results

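This comparison set ETV6 knockout cells against unedited cells when both carried a lentiviral vector for wild-type ETV6. It asks which differences between the genotypes remain when ETV6 is plentiful in both. Its members are 6 of the 18 libraries of the study: 3 from knockout cells and 3 from unedited cells, picked by their genotype and vector labels, and all genes were tested. All libraries came from MEG-01, a line grown from a human megakaryoblastic leukemia and labelled leukemic and hematopoietic, and cells were harvested on day 3 after transduction. The unedited group has the genotype label WT and received lenti_ETV6-WT, and the knockout group has the genotype label ETV6-KO and received the same vector. Groups given an empty vector (EV) or ETV6 carrying the R369W change are used only for values set beside these. The titles number unedited libraries 2, 3 and 4 and knockout libraries 1, 2 and 4, and the design text calls them biological replicates. How the knockout was made, whether its cells are 1 clone and which promoter drives the vector are not stated in the labels.

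ETV6 is a transcription factor of the ETS family that represses genes, binding DNA through its ETS domain and pairing with itself through a pointed domain. It is needed in blood stem cells and for platelet formation, and inherited changes in its ETS domain cause low platelet counts with a risk of leukemia. Megakaryocytes, which shed platelets, and red cell precursors arise from a shared progenitor, and lines such as MEG-01 can express genes of both.

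The 6 libraries held 12592588 to 13327823 gene reads each, while 35.28% to 40.76% of reads had no gene. Levels are in CPM, reads per 1000000 gene reads after scaling for library composition, and 3 reads correspond to 0.225 to 0.238 CPM in these libraries. Per-library values follow the order 2, 3 and 4 for unedited cells and 1, 2 and 4 for knockout cells. Unedited library 4 and knockout library 2 stood apart from the others of their groups on the first 2 principal components, which held 52.9% and 21.6% of the variance over the 18 libraries. Deviations of knockout R369W libraries from their group mean were correlated across genes with those of knockout libraries of the other vectors. Differently numbered pairs had Pearson correlations of -0.614 to 0.872 (12 pairs) and same-numbered pairs -0.581 to -0.153. Whether their numbers mark the same source as in the other groups is therefore unclear, and the knockout R369W group is used whole. The level of ETV6 (ENSG00000139083; chromosome 12 of GRCh38 from 11649854 to 11895402, plus strand) was 2309, 2392 and 2620 CPM in unedited cells, against 1784, 2377 and 1748 CPM in the knockout. The groups overlapped, and the log2 difference of -0.31 (SE 0.33) had an adjusted p of 0.681. With EV the means were 96.3 ± 42.7 CPM in unedited and 85.1 ± 40.7 CPM in knockout cells (SD, n = 3). Gene reads count the vector and the cell's own gene together and do not show an edit of a few bases, so they check the vector but not the knockout label. Of the megakaryocyte markers, ITGA2B was high (72949 reads over the 6 libraries) and PF4 had 0 reads and GP9 had 32. The T cell marker CD3E had 0 reads and CD2 had 1. Of the myeloid markers, CD33 had 10337 reads and ITGAM 2789, while CD14 had 15 and MPO 2.

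With ETV6 in both genotypes, 310 of 12262 genes differed (edgeR quasi-likelihood test, adjusted p under 0.05), which is 2.53% of the genes tested. Of these, 223 were higher in knockout cells (1.82%) and 87 were lower (0.71%). The higher genes moved further: 164 of the 223 differed by more than 2-fold, against 24 of the 87 lower genes, and the median log2 differences were 1.73 and -0.66, beside a median of -0.01 over all genes. In 68 of the 223 higher genes the unedited mean was under 1 CPM. All 310 called genes had the 3 libraries of 1 genotype above the 3 of the other, and 22.7% of all genes tested also had groups that did not overlap. These are bulk samples, so fewer cells of a type and less RNA per cell cannot be told apart. The count depended on single libraries. It was 127 without unedited library 2, 132 without unedited library 3, 163 without unedited library 4, 127 without knockout library 1 and 116 without knockout library 4. Without knockout library 2 it was again 310, but 236 of these were among the first 310. A core of 80 genes, 69 higher and 11 lower, was called whichever 1 of the 6 libraries was left out, and genes described first below belong to it unless stated.

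CCND1, the D-type cyclin that drives entry into the cell cycle, had the smallest adjusted p (ENSG00000110092, GRCh38 chromosome 11, 69641087 to 69654474, plus strand). It measured 14.5, 13.8 and 9.73 CPM in unedited cells, and knockout cells had 155, 135 and 114 CPM. The lowest knockout library lay well above the highest unedited one. The log2 difference was 3.41 (SE 0.22, adjusted p = 1.51e-06), and its largest adjusted p without any 1 library was 4.3e-05. ITGB2, the shared beta chain of the leukocyte integrins, was nearly silent in unedited cells at 0.246, 0.0754 and 0.0754 CPM. In knockout cells it measured 21.6, 13.5 and 9.68 CPM, a log2 difference of 6.75 (SE 0.62, adjusted p = 1.12e-04). Its partner chain ITGAM did not pass the test, at 44.3 ± 7.24 CPM in unedited and 27.3 ± 4.26 CPM in knockout cells (SD, n = 3, adjusted p = 0.125). IL1R1, the signalling receptor for interleukin 1, was named after its values were seen. It measured 3.44, 3.70 and 6.26 CPM in unedited and 49.4, 74.3 and 109 CPM in knockout cells (log2 4.11, SE 0.42, adjusted p = 2.95e-04).

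Several genes had no reads in any unedited library with the ETV6 vector and were plain in knockout cells. NOVA2, a neuronal regulator of RNA splicing, stood at 23.5, 8.74 and 18.0 CPM in the 3 knockout libraries and was at least 216.7-fold higher, taking 3 reads over the unedited group as the limit of a count of 0 (adjusted p = 5.53e-04). SHISAL1 had 13.1, 5.75 and 9.97 CPM in knockout cells and was at least 124.1-fold higher (adjusted p = 1.82e-03). SLFN11, which sensitises cells to DNA-damaging drugs, had 53.6, 4.91 and 66.0 CPM and was at least 539.7-fold higher. In SLFN11, knockout library 2 was far below the other knockout libraries. Its adjusted p of 0.0125 became 0.0502 without unedited library 2 and 0.0518 without unedited library 3. P2RY8, a receptor of the purinergic family found on lymphoid cells, had 1 read over the unedited group and 4.68, 5.37 and 2.68 CPM in knockout cells. The ratio of its summed reads was 163.8 (95% interval 29 to 6506, counting error only; adjusted p = 2.31e-03).

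Receptors, a neuropeptide and an ion exchanger were among the other large rises. S1PR3, a receptor for sphingosine 1-phosphate, measured 0.164, 0.453 and 0.151 CPM in unedited and 29.5, 28.99 and 10.1 CPM in knockout cells (log2 6.42, SE 0.86, adjusted p = 1.24e-03). The related receptor S1PR1 went the other way, as given below. ADCYAP1, which encodes a neuropeptide that raises cyclic AMP, averaged 0.130 ± 0.117 CPM in unedited and 10.7 ± 4.40 CPM in knockout cells (SD, n = 3; log2 6.27, SE 0.91). SLC24A3, a sodium, potassium and calcium exchanger, averaged 0.205 ± 0.0836 CPM against 13.2 ± 6.62 CPM (log2 5.94, SE 0.69). PTCH1, the hedgehog receptor, and ENC1, an actin-binding protein, were picked after their values were seen. PTCH1 measured 1.06, 0 and 0.453 CPM against 22.04, 19.02 and 24.04 CPM, and ENC1 measured 170.6, 255.6 and 182.9 CPM against 1273, 645.3 and 854.4 CPM. Both separated without overlap, with log2 differences of 5.43 and 2.19. ADAMTS4, a protease of the extracellular matrix, and BRSK2, a neuronal kinase, were also among the largest rises, with log2 differences of 5.91 and 6.07. Neither belongs to the core: ADAMTS4 had an adjusted p of 0.0705 without unedited library 2 and 0.0721 without unedited library 3. BRSK2 reached 0.0712, 0.0752 and 0.0537 without unedited libraries 2, 3 and 4, and 0.0626 without knockout library 4.

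**Figure D1:**
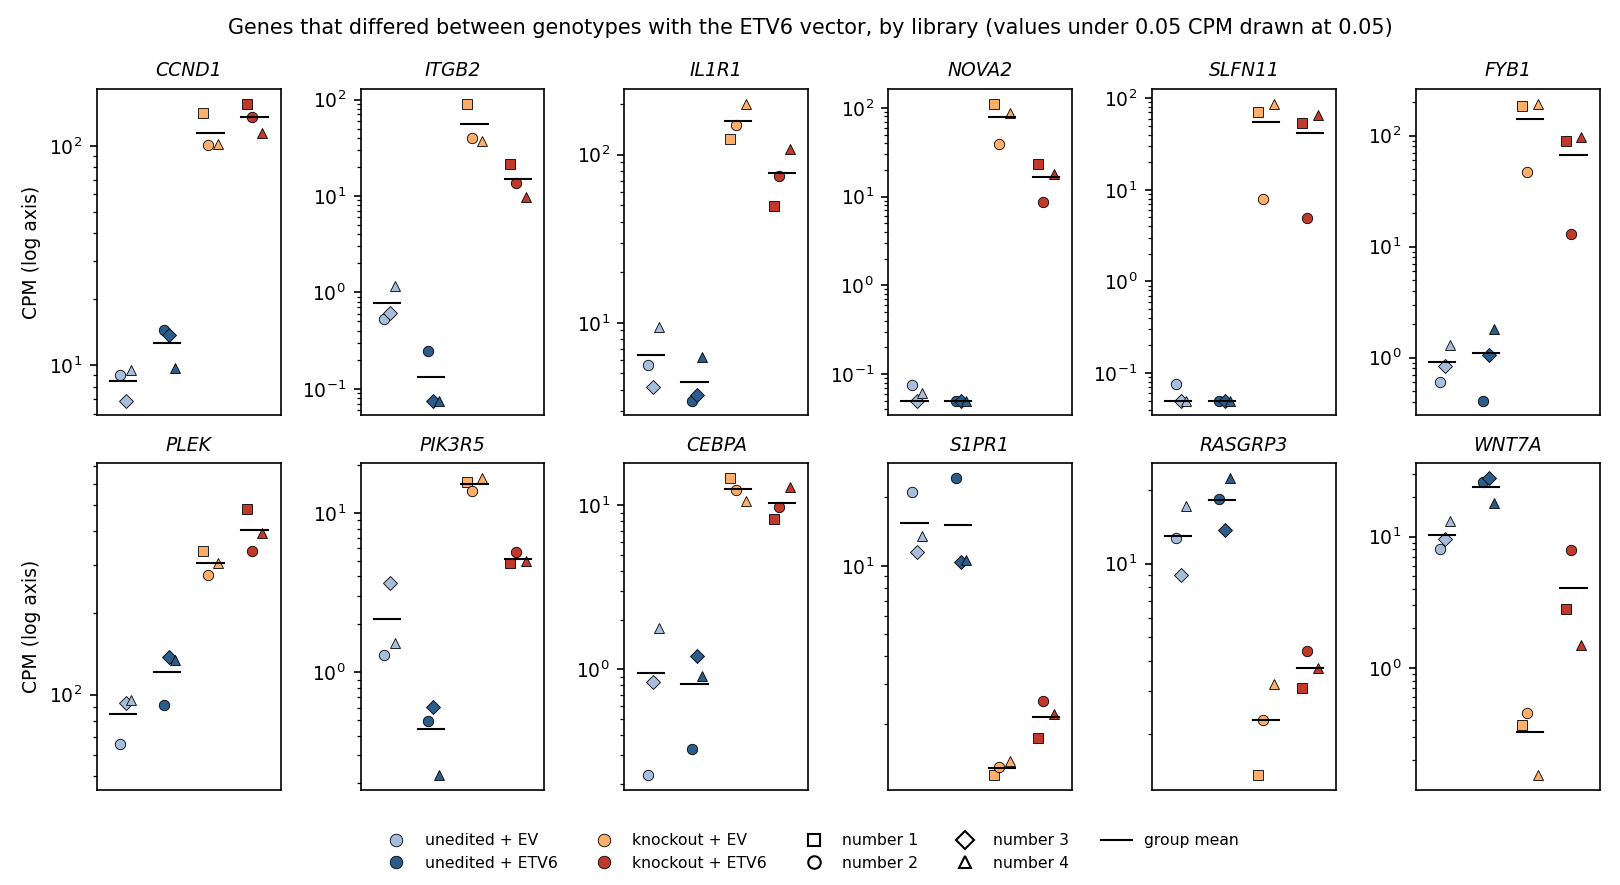
CPM (log axis) of 12 genes in each library of 4 groups: unedited and knockout cells with EV or with the ETV6 vector. Symbols give the replicate number and bars the group mean, and values under 0.05 CPM are drawn at 0.05. In every panel the 3 knockout libraries with ETV6 lie apart from the 3 unedited libraries with ETV6. The 12 were picked among the 310 called genes, all of which separate in this way, as do 22.7% of all genes tested. CCND1 averaged 12.7 CPM in unedited and 135 CPM in knockout cells with ETV6, and S1PR1 averaged 15.1 CPM and 2.17 CPM.

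Fewer genes were lower in knockout cells, and their differences were smaller. S1PR1, the receptor for sphingosine 1-phosphate that guides blood cells and endothelium, measured 24.3, 10.4 and 10.6 CPM in unedited and 1.74, 2.53 and 2.23 CPM in knockout cells. Its log2 difference was -2.80 (SE 0.41, adjusted p = 1.98e-03). RASGRP3, an exchange factor that activates RAS proteins, measured 18.5, 13.8 and 22.5 CPM against 3.09, 4.37 and 3.72 CPM (log2 -2.29, SE 0.34, adjusted p = 2.31e-03). MOB3B, named after its values were seen, differed less but at a higher level, with 300, 304 and 338 CPM against 202, 195 and 185 CPM (log2 -0.70, SE 0.10). The ribosomal protein gene RPS20 was also in the core, at 1113, 1133 and 1117 CPM against 801, 902.7 and 810.7 CPM, and was likewise named afterwards.

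WNT7A, a secreted WNT ligand, measured 26.2, 27.98 and 18.2 CPM in unedited cells, against 2.79, 7.90 and 1.49 CPM in the knockout. The groups did not overlap, and the log2 difference was -2.57 (SE 0.50, adjusted p = 0.0148). The adjusted p was 0.0522 without unedited library 2, 0.0544 without unedited library 3, 0.0818 without knockout library 1 and 0.0537 without knockout library 4. Of the falls among genes averaging 1 or more on the log2 CPM scale, that of DCAF4L2 was the largest, from 114 ± 60.9 CPM to 8.44 ± 6.01 CPM (SD, n = 3; log2 -3.76, adjusted p = 0.0486). That call was lost whichever library was left out, with adjusted p between 0.051 (unedited library 4) and 0.181 (knockout library 4). COL23A1, a membrane collagen, and CPED1 fell by 3.41 and 2.37 on the log2 scale. COL23A1 lost its call without unedited library 2 (0.0887), knockout library 1 (0.114) or knockout library 2 (0.0647), and CPED1 without knockout library 1 (0.0885) or 4 (0.0834).

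Genes of the red cell lineage leaned lower in knockout cells that carried the ETV6 vector, as they did with EV and with R369W. Of the list's 47 tested genes 3 were called lower and 0 higher, and 0.71% of all genes were called lower. Without adjustment for multiple tests 23 of the 47 were lower at a p under 0.05 and 0 were higher, against 1008 and 1163 of all 12262 genes. The median log2 difference of the list was -0.84, against -0.01 for all genes, and 4 of the 47 were above 0. With EV the median was -0.94, with 25 genes lower and 1 higher at an unadjusted p under 0.05, against 868 and 1305 of all genes. With R369W it was -0.75, with 24 lower and 0 higher, against 1274 and 1420 of all genes. The summed level of the list was 9218 to 13670 CPM in the unedited libraries and 5761 to 8380 CPM in the knockout libraries, with no overlap.

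GYPB encodes a glycophorin, a sialic acid-rich protein of the red cell membrane. It has near-identical genes, and reads that align to several are counted for none, so its level is uncertain. GYPB measured 27.6, 25.4 and 30.02 CPM against 5.43, 9.05 and 5.36 CPM (log2 -2.06, SE 0.32, adjusted p = 2.47e-03), and its call held without any 1 library. ICAM4, the red cell adhesion molecule of the LW blood group, measured 31.8, 27.98 and 19.2 CPM against 14.0, 14.3 and 12.9 CPM (log2 -0.94, SE 0.16, adjusted p = 5.07e-03). CD36, a fatty acid and thrombospondin receptor of platelets and young red cells, had one of the 12 largest falls. It averaged 94.8 ± 30.9 CPM against 22.96 ± 2.56 CPM (SD, n = 3; log2 -2.05, adjusted p = 0.0102, and 0.058 without knockout library 1).

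Several other members of the red cell list had wide spreads and did not pass the test. ALAS2, the first enzyme of heme synthesis in red cells, measured 127, 50.8 and 72.4 CPM in unedited and 9.73, 32.8 and 4.39 CPM in knockout cells (adjusted p = 0.17). SLC4A1, the band 3 anion exchanger, measured 147, 25.1 and 130 CPM against 4.00, 24.0 and 7.22 CPM (adjusted p = 0.119). In ALAS2 and SLC4A1, knockout library 2 was the highest of its group and came close to the lowest unedited library. The fetal globin HBG1 averaged 1177 ± 344.8 CPM against 443.2 ± 219.5 CPM (SD, n = 3, adjusted p = 0.165). Reads that align to HBG2 as well are counted for neither gene, so these levels may be too low. GATA1 and KLF1, the transcription factors that drive the red cell program, averaged 204 and 154 CPM in unedited and 169 and 92.6 CPM in knockout cells (adjusted p = 0.468 and 0.323).

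**Figure D2:**
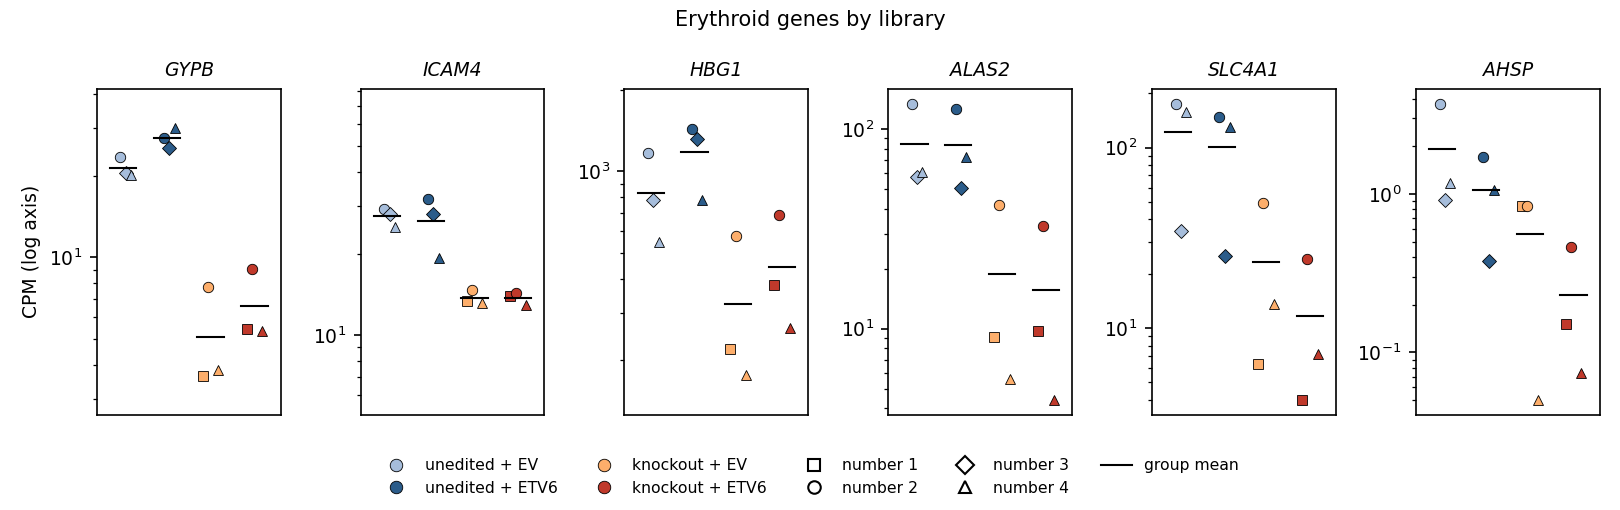
CPM (log axis) of 6 genes of the red cell lineage by library, with symbols as replicate numbers and bars as group means. GYPB and ICAM4 passed the test with the ETV6 vector. HBG1, ALAS2, SLC4A1 and AHSP did not, and in ALAS2 and SLC4A1 knockout library 2 is the highest of the knockout libraries with ETV6 (32.8 CPM and 24.0 CPM).

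Platelet genes went the other way in part. Of 40 tested members of the megakaryocyte and platelet list, 3 were called higher and 0 lower, where 1.82% of all genes were called higher and 0.71% lower. Without adjustment 13 were higher and 4 lower at a p under 0.05, against 1163 and 1008 of all 12262 genes. The median log2 difference was 0.36. The summed level of the list was 5750 to 6234 CPM in unedited and 7256 to 7608 CPM in knockout libraries. PLEK, or pleckstrin, the main protein kinase C substrate of platelets, measured 91.7, 137 and 135 CPM in unedited and 482, 338 and 396 CPM in knockout cells. Its log2 difference was 1.74 (SE 0.19, adjusted p = 4.07e-04), and it stayed called in every alternative. ITGA6, a laminin receptor chain, measured 0.492, 0.528 and 1.28 CPM against 6.26, 6.44 and 8.19 CPM (log2 3.16, SE 0.63, adjusted p = 0.0156). Its adjusted p was 0.0767, 0.0772 and 0.0541 without unedited library 2, unedited library 3 and knockout library 4. NBEAL2, needed for platelet alpha granules, averaged 136 ± 13.9 CPM against 185 ± 11.6 CPM (SD, n = 3; log2 0.45, adjusted p = 0.044), and lost the call without any 1 library other than knockout library 2, at 0.0751 to 0.166. The integrin chain ITGA2B did not pass, at 847 ± 82.0 CPM against 1009 ± 88.0 CPM (SD, n = 3, adjusted p = 0.414), nor did FLI1, an ETS factor of megakaryocytes, at 53.5 and 124 CPM (adjusted p = 0.0872). The megakaryocyte marker TUBB1 was lower in knockout cells, at 7.95, 5.05 and 3.02 CPM against 2.42, 2.61 and 0.744 CPM. The groups did not overlap, but it did not pass either (log2 -1.47, adjusted p = 0.346).

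Of the 20 ETS family factors tested, 0 were called at an adjusted p under 0.05, and without adjustment 4 were higher and 1 lower. DESeq2 called 2 of them, limma-voom 0. In the myeloid list of 22 tested genes, CEBPA was called higher and LYZ lower. CEBPA, the transcription factor that starts granulocyte differentiation, measured 0.328, 1.21 and 0.905 CPM against 8.23, 9.82 and 12.9 CPM (log2 3.64, SE 0.52, adjusted p = 1.78e-03). LYZ, the lysozyme of myeloid cells, measured 18.8, 30.2 and 29.2 CPM against 17.1, 14.3 and 16.4 CPM (log2 -0.72, adjusted p = 0.0387). Its call was lost without any 1 library other than unedited library 2, at 0.092 to 0.127. Of the 22 differences 14 were above 0, and the median log2 difference was 0.67. Without adjustment 8 were higher and 2 lower at a p under 0.05, against 1163 and 1008 of all 12262 genes. The summed level of the list went the other way, at 687.7 to 745 CPM in unedited and 561.5 to 657.6 CPM in knockout libraries. Of its members, CD33 averaged 141.6 CPM in unedited and 122 CPM in knockout cells (adjusted p = 0.347). CD14 had 15 reads over the 6 libraries, and the part of such cells in the result was not tested.

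In the immunoreceptor signalling list, 4 of 29 tested genes were called higher and 0 lower, where 1.82% of all genes were called higher and 0.71% lower. Without adjustment 14 were higher and 1 lower at a p under 0.05, against 1163 and 1008 of all 12262 genes, and the median log2 difference was 0.35. FYB1, an adaptor of T cells and platelets, measured 0.410, 1.06 and 1.81 CPM in unedited and 89.3, 13.1 and 96.2 CPM in knockout cells (log2 5.89, SE 0.90, adjusted p = 2.47e-03). PIK3R5, the regulatory subunit of PI3-kinase gamma, measured 0.492, 0.603 and 0.226 CPM against 4.83, 5.68 and 4.99 CPM (log2 3.53, SE 0.39, adjusted p = 4.18e-04). PIK3CD, the catalytic subunit of PI3-kinase delta, measured 9.91, 9.96 and 10.5 CPM against 24.4, 46.4 and 40.8 CPM (log2 1.88, SE 0.25, adjusted p = 1.20e-03). PLCG2, the fourth, differed by 0.66 on the log2 scale (adjusted p = 0.0426) and lost its call whichever library was left out, at 0.061 to 0.132. VAV1 and SYK, further members, did not pass, at 51.7 and 74.0 CPM (adjusted p = 0.215) and at 49.1 and 61.2 CPM (adjusted p = 0.189).

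In the class I antigen presentation list, 2 of 22 tested genes were called higher and 0 lower. Over all genes, 1.82% were called higher and 0.71% lower. In the list 21 of the 22 differences were above 0, against 6011 of all 12262, with a median of 0.25. HLA-B measured 16.8, 26.7 and 32.7 CPM in unedited and 94.9, 67.0 and 95.5 CPM in knockout cells (log2 1.75, SE 0.32, adjusted p = 9.20e-03). Reads that also align to its HLA relatives can be missed. NLRC5, the activator of class I genes, averaged 8.07 ± 1.10 CPM against 18.0 ± 2.07 CPM (SD, n = 3; log2 1.15, adjusted p = 0.0232), and its call was lost without any 1 library other than knockout library 2, at 0.0552 to 0.0981. B2M, the light chain of class I molecules, averaged 483 and 414 CPM and did not pass (adjusted p = 0.182). The class II list had the largest median, 3.07 over 8 tested genes, but edgeR called 0 of the 8. Without adjustment 4 were higher at a p under 0.05, against 1163 of all 12262 genes, while DESeq2 called 1 and limma-voom 0. In HLA-DRA, a chain of the HLA-DR molecule, 1 library stood out: its level was 0, 0.830 and 0 CPM in unedited cells, against 0.981, 24.2 and 1.34 CPM in the knockout, the 24.2 CPM being knockout library 2.

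B-lymphoid genes were few, 7 of 21 listed genes passing the filter on low counts, and 2 were called higher. Over all genes tested, 1.82% were called higher. CD24, a surface glycoprotein with copies elsewhere in the genome, measured 53.7, 34.8 and 36.9 CPM in unedited and 102, 98.3 and 138 CPM in knockout cells (log2 1.43, SE 0.30, adjusted p = 0.0205). Its adjusted p was 0.0884 and 0.0795 without unedited libraries 3 and 4 and 0.0918 without knockout library 4. RAG2, of the recombinase that joins antigen receptor gene segments, averaged 0.447 ± 0.293 CPM against 2.24 ± 0.768 CPM (SD, n = 3; log2 2.31, adjusted p = 0.0231). Its call was lost without unedited libraries 3 (0.0819) and 4 (0.0735) and knockout libraries 1 (0.096) and 4 (0.0559). The B cell factor PAX5 had 28 reads over the 6 libraries, all in knockout library 2. The list's summed level was 42.4 to 60.7 CPM in unedited and 107.2 to 146.4 CPM in knockout libraries, most of it CD24. The cytokine receptor list had 2 of 33 tested genes called higher, both in the core. IL6R, the interleukin 6 receptor chain, averaged 1.99 ± 1.14 CPM against 10.6 ± 2.83 CPM, and IL3RA, the interleukin 3 receptor chain, averaged 0.201 ± 0.190 CPM against 3.00 ± 0.838 CPM (SD, n = 3; adjusted p = 1.80e-03 and 9.67e-03).

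The apoptosis list had 4 of 29 tested genes called higher and 0 lower, with a median of 0.02. Over all genes tested, 1.82% were called higher and 0.71% lower. BAK1, which permeabilises mitochondria in cell death, measured 17.8, 19.3 and 17.8 CPM in unedited and 37.6, 32.1 and 31.9 CPM in knockout cells (log2 0.89, SE 0.13, adjusted p = 1.98e-03). BIRC7, an inhibitor of apoptosis, and TNFSF10, the death ligand TRAIL, were called at adjusted p of 0.0205 and 0.0344, and the apoptosis blocker BCL2 at 0.0439. These genes have opposite roles. BIRC7, TNFSF10 and BCL2 are outside the core. BIRC7 lost its call without any unedited library or without knockout library 1, at 0.0645 to 0.0754. TNFSF10 lost it without any 1 library other than knockout library 2, at 0.0879 to 0.122, and BCL2 without any other than unedited library 4, at 0.0531 to 0.149. In the list of RAS and small GTPase regulators, RASGRP3 was called lower and RIN3, an exchange factor for RAB5, was called higher (log2 0.59, SE 0.10, adjusted p = 7.83e-03), of 29 tested. In the WNT and axon guidance list 3 of 41 were called higher and WNT7A lower. SEMA4D, a transmembrane semaphorin, measured 7.05, 9.73 and 8.37 CPM against 22.5, 17.0 and 20.8 CPM (log2 1.26, SE 0.20, adjusted p = 3.99e-03).

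The cell cycle list, of 36 tested genes, had CCND1 higher and the replication helicase subunit MCM7 lower, with a median of -0.09. MCM7 averaged 277 ± 18.5 CPM against 225 ± 15.3 CPM (SD, n = 3; log2 -0.30, adjusted p = 0.0347), and lost its call without unedited library 2 or 4 or knockout library 1 or 4, at 0.1 to 0.159. The interferon-stimulated list had 2 of 42 called higher and 1 lower, and the NF-kB target list 2 of 23 higher. Over all genes tested, 1.82% were called higher and 0.71% lower. OAS3, an antiviral synthetase, averaged 10.2 ± 1.75 CPM against 23.5 ± 5.16 CPM (SD, n = 3; adjusted p = 9.67e-03, and 0.0522 without unedited library 2). The lower member of the interferon-stimulated list was IFI27, at 1.97, 5.36 and 5.43 CPM in unedited and 0.226, 0.690 and 0.372 CPM in knockout cells (log2 -3.28, SE 0.71, adjusted p = 0.0247). It had 17 reads over the knockout libraries and is outside the core. ICAM1, an adhesion molecule induced by NF-kB, averaged 1.63 ± 1.01 CPM against 5.37 ± 1.34 CPM (SD, n = 3; adjusted p = 0.0258). It lost the call without unedited library 2 or 3 (0.102 each), knockout library 2 (0.0646) or knockout library 4 (0.0624). In the mast cell and basophil list 1 of 15 was called higher, the prostaglandin D synthase HPGDS, at 4.34, 12.1 and 8.45 CPM against 67.2, 18.8 and 75.8 CPM (log2 2.70, adjusted p = 0.0305). Without any 1 library other than knockout library 2 its call was lost, at 0.0628 to 0.117. In the stem and endothelial list 1 of 14 was called lower, S1PR1. Of the p53 targets (18 tested), the MYC and ribosome biogenesis genes (30), the cholesterol and fatty acid synthesis genes (32), the unfolded protein response genes (25), the heat shock and immediate-early genes (28), the actin and proplatelet genes (41), the T and NK cell genes (9) and the fibroblast and epithelial genes (5), edgeR called 0. At an unadjusted p under 0.05 these lists held 4, 1, 2, 6, 2, 6, 4 and 0 higher genes and 0, 1, 1, 0, 1, 5, 1 and 0 lower genes. Of all 12262 genes tested, 1163 were higher and 1008 lower at that p. DESeq2 called 1, 0, 1, 4, 1, 3, 1 and 0 genes of these lists, all higher, and limma-voom called 0 in each.

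**Figure D3:**
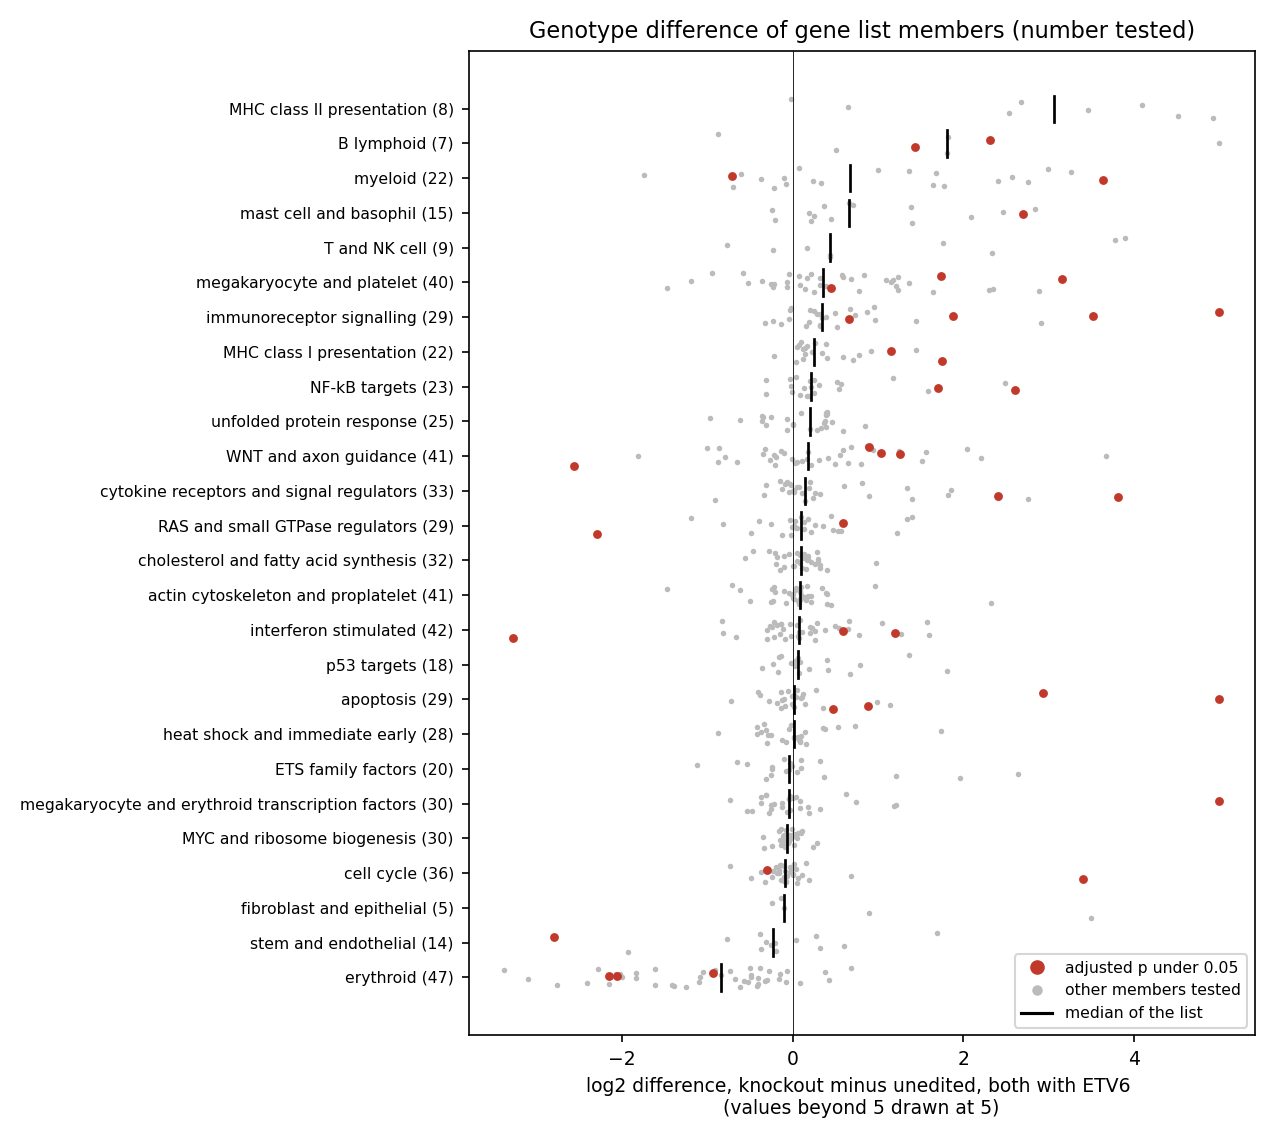
Log2 difference, knockout minus unedited with the ETV6 vector, of every tested member of 26 gene lists (points, red where the adjusted p is under 0.05), with the number tested in brackets and a bar at the list's median. Values beyond 5 are drawn at 5. The red cell list has its median at -0.84 with 4 of 47 members above 0, while the class II list has the largest median with 0 members called.

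The genotype difference with ETV6 was set beside those with EV and with R369W, which use other libraries. With EV 531 genes differed (4.33% of those tested), 406 higher (3.31%) and 125 lower (1.02%). With R369W 513 differed (4.18%), 318 higher (2.59%) and 195 lower (1.59%). Of the 310 genes called with ETV6, 216 were called the same way with EV, which is 69.68% of the ETV6 list and 40.68% of the EV list, and 213 were called the same way with R369W. No gene was called in opposite directions. All 3 vectors shared 174 genes, 140 higher and 34 lower, and 55 genes were called with ETV6 only. Of the core of 80 genes, 76 were also called with EV and 68 with both other vectors. These lists are not independent, since same-numbered ETV6 and EV libraries of 1 genotype deviated from their group means together (Pearson correlation across genes 0.711 to 0.853).

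Genes called with EV mostly had the same direction and a smaller difference with ETV6. Of the 531 genes called with EV, 518 kept their sign with ETV6 and 429 had a smaller difference, where some shrinkage follows from choosing genes by their EV difference. The median log2 difference of the 406 higher genes was 1.48 with EV and 1.17 with ETV6, and that of the 125 lower genes -0.76 and -0.56. CCND1 differed by 3.75 with EV, 3.41 with ETV6 and 4.18 with R369W on the log2 scale. For CEBPA the 3 values were 3.69, 3.64 and 3.96, and for GYPB they were -2.08, -2.06 and -2.20. IL6R was called with EV and ETV6 at 1.81 and 2.40 but not with R369W, at 0.95 (adjusted p = 0.0967). List medians with EV, ETV6 and R369W were 0.39, 0.35 and 0.34 for immunoreceptor signalling. They were 0.33, 0.25 and 0.31 for class I and 2.89, 3.07 and 2.26 for class II antigen presentation. For the megakaryocyte and platelet list they were 0.13, 0.36 and 0.26, and for the B-lymphoid list 2.36, 1.81 and 0.35.

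**Figure D4:**
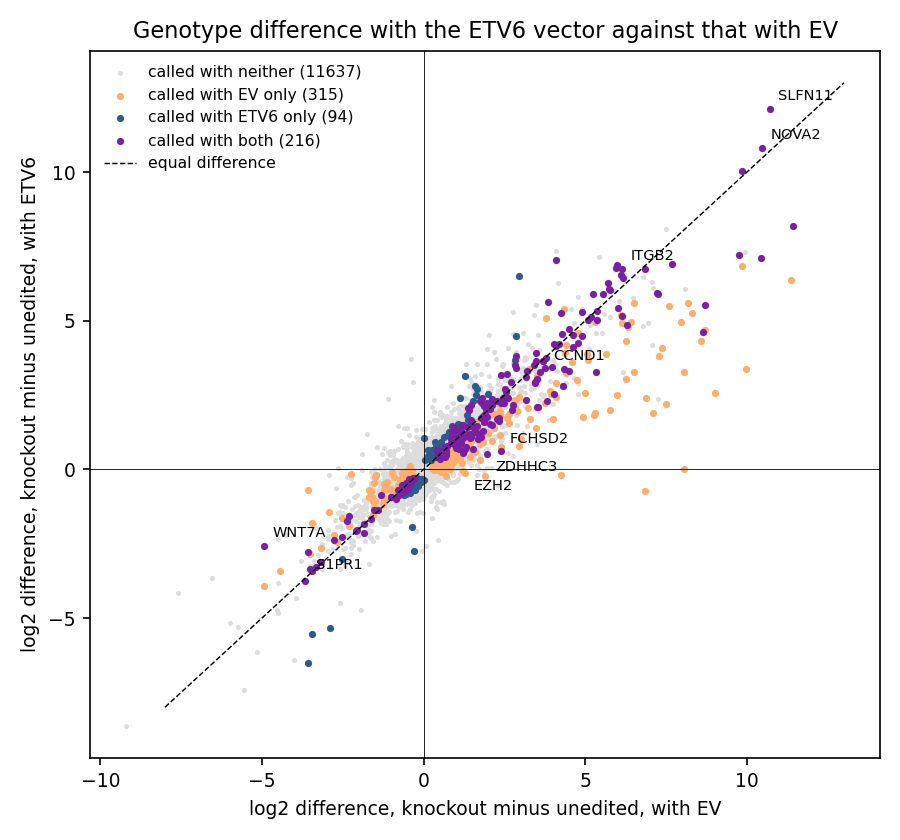
Log2 difference between knockout and unedited cells with EV (horizontal axis) and with the ETV6 vector (vertical axis) for the 12262 genes tested, coloured by where they were called. Most of the 216 genes called with both lie near the line of equal difference, and EZH2 lies near 0 on the vertical axis only.

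The test of whether the genotype difference itself differed between ETV6 and EV called 3 of 12262 genes (0.0245%; 233 had an unadjusted p under 0.05), all with a smaller difference with ETV6. EZH2, the methyltransferase of Polycomb repressive complex 2, was the clearest case of a difference that was no longer seen (ENSG00000106462, GRCh38 chromosome 7, 148807383 to 148884321, minus strand). With EV it measured 102.8, 83.2 and 106.6 CPM in unedited and 233.1, 237.4 and 244.4 CPM in knockout cells. With ETV6 it measured 90.1, 87.4 and 117 CPM in unedited and 86.5, 87.3 and 95.6 CPM in knockout cells, and the groups overlapped. The genotype difference was 1.29 on the log2 scale with EV and -0.13 (SE 0.13, adjusted p = 0.649) with ETV6, and these differed by -1.42 (SE 0.18, adjusted p = 4.17e-03).

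FCHSD2, which shapes membranes in endocytosis, and ZDHHC3, a palmitoyltransferase, narrowed but kept a small difference. FCHSD2 averaged 47.7 ± 7.79 CPM in unedited and 252.4 ± 51.8 CPM in knockout cells with EV, and 40.4 ± 2.47 CPM and 61.8 ± 2.56 CPM with ETV6 (SD, n = 3). Its difference fell from 2.41 to 0.61 on the log2 scale, a change of -1.79 (SE 0.19, adjusted p = 9.66e-04). ZDHHC3 averaged 64.2 ± 7.28 CPM and 247.3 ± 19.03 CPM with EV, and 64.3 ± 5.20 CPM and 91.6 ± 8.80 CPM with ETV6 (SD, n = 3), a change of -1.44 (SE 0.16, adjusted p = 9.66e-04). The remaining differences with ETV6 had adjusted p of 0.0295 and 0.0254 and were not stable, reaching 0.111 and 0.114 without knockout library 1. FCHSD2 lost the call without any library but knockout library 2, and ZDHHC3 without any but knockout library 4, while their changes between vectors stayed called in every alternative.

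Same-numbered EV and ETV6 libraries pair, so the test was repeated with genotype and number as a block over the 12 EV and ETV6 libraries. It called 138 of 12067 genes (1.14%), 75 with a more negative and 63 with a more positive genotype difference under ETV6. Of these, 38 had been called higher with EV and had a smaller or reversed difference, 11 had been called lower with EV and moved upward, and 87 were called in neither genotype comparison. Among the 138 were 13 of the 310 genes called with ETV6, where the test called 1.14% of all its genes. Of the 216 genes called with ETV6 and EV, 205 had no call in this test, which does not show that their differences were equal. DSC3, a desmosomal cadherin, averaged 0.931 CPM in unedited and 51.8 CPM in knockout cells with EV but 0.862 CPM and 3.47 CPM with ETV6 (change -3.75 on the log2 scale, adjusted p = 3.84e-04). CXCR4, the receptor for the chemokine CXCL12, averaged 0.582 CPM and 17.7 CPM with EV and 0.923 CPM and 3.10 CPM with ETV6 (change -3.14, adjusted p = 3.96e-03). Without the block these changes had adjusted p of 0.449 and 0.423.

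In the other direction, KDR, the main receptor for vascular endothelial growth factor, measured 2.03, 0.457 and 5.82 CPM in knockout cells with EV. With ETV6 knockout cells had 14.9, 8.82 and 43.4 CPM, above the same-numbered EV library in each case. In unedited cells the means were 21.1 CPM with EV and 25.5 CPM with ETV6, and the change of 2.66 on the log2 scale had an adjusted p of 3.74e-05 with the block and 1 without it. WNT7A narrowed as well, from -4.93 with EV to -2.57 with ETV6 (change 2.31 with the block, adjusted p = 0.0484), yet knockout cells stayed low, as described. SEMA7A, a semaphorin anchored in the membrane, was the reverse: its genotype difference was seen with ETV6 and not with EV. It measured 30.5, 22.2 and 18.3 CPM in unedited and 49.5, 47.7 and 48.9 CPM in knockout cells with ETV6 (log2 1.04, SE 0.23, adjusted p = 0.0254), and averaged 21.1 CPM in both with EV. The change of 1.07 had an adjusted p of 2.24e-03 with the block and 1 without it. The difference with ETV6 had adjusted p of 0.0937, 0.0955, 0.0826 and 0.0803 without unedited libraries 3 and 4 and knockout libraries 1 and 4.

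**Figure D5:**
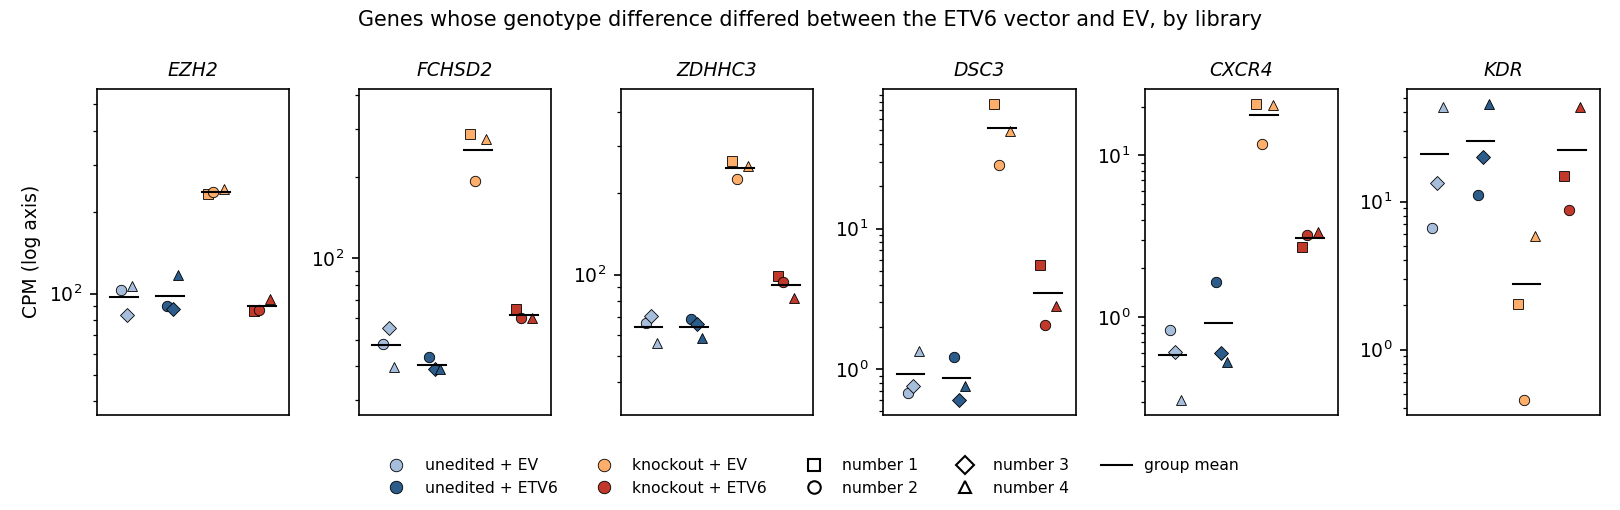
CPM (log axis) by library of 6 genes whose genotype difference differed between the ETV6 vector and EV, EZH2, FCHSD2 and ZDHHC3 in both fits and DSC3, CXCR4 and KDR with the replicate block only. Symbols give replicate numbers and bars group means. EZH2 averages 238.3 CPM in knockout cells with EV and 89.8 CPM with ETV6, level with both unedited groups.

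Several genes near 0 in unedited cells had no call for a change of the genotype difference between vectors, although their levels in knockout cells lay far apart. With so few unedited reads that change was poorly estimated, so the missing call does not show equal differences. Within knockout cells, the edgeR test of ETV6 against EV called CLIC5, LMTK3 and BIRC7 lower with ETV6. Their log2 differences were -7.725, -5.886 and -5.15 (adjusted p = 1.74e-05, 2.97e-05 and 2.31e-04). CLIC5, a chloride channel protein linked to the cytoskeleton, averaged 225.7 ± 27.7 CPM in knockout cells with EV and 1.06 ± 0.214 CPM with ETV6 (SD, n = 3). In unedited cells it averaged 0.247 CPM with EV and had 0 reads with ETV6, so knockout cells were at least 13.65-fold higher with ETV6, without a call (adjusted p = 0.103). BIRC7 averaged 45.0 ± 20.6 CPM in knockout cells with EV and 1.26 ± 0.609 CPM with ETV6 (SD, n = 3), and had 0 reads in unedited cells with ETV6. LMTK3, a kinase of neurons named after its values were seen, averaged 51.1 CPM and 0.855 CPM in the same groups, with 1 read over the unedited ETV6 libraries. Its ratio of summed reads with ETV6 was 33.1 (95% interval 5.56 to 1347, counting error only; adjusted p = 0.0439, lost whichever library was left out, at 0.0545 to 0.146). IGFBP5, a binder of insulin-like growth factors also named afterwards, lay between: it averaged 152.9 CPM in knockout cells with EV and 52.1 CPM with ETV6, against 7.64 CPM and 7.42 CPM in unedited cells.

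RefSeq promoters (GRCh38.p14, 250 bases before to 50 after the start) were matched by symbol for 10007 of the 12262 genes tested, 171 of the 223 higher and 69 of the 87 lower genes. They were searched on both strands for CCGGAAG, the sequence ETS factors prefer, for its inner part GGAAG, which the longer sequence always contains, and for the GATA factor sequence AGATAA. The ETS sequence was present in 14 of the 171 promoters of higher genes (8.2%) and 15 of the 69 of lower genes (21.7%), against 19.8% of all promoters. In the core it was present in 2 of 54 promoters of higher genes (3.7%). The inner part was present in 75.4% of higher, 72.5% of lower and 76.7% of all promoters. The GATA sequence was present in 7.0% of higher, 13.0% of lower and 5.1% of all promoters. Median GC content was 65.7%, 64.3% and 65.3%.

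Promoters of 2 higher genes, PLEK and PIK3R5, and of 2 lower genes, S1PR1 and GYPB, are shown because their calls held in every alternative. They run from 250 bases before to 30 after the start and were taken from RefSeq (GRCh38.p14), with capitals marking GGAAG, its reverse CTTCC and AGATAA. The regions are chr2:68365032-68365311, plus strand for PLEK, chr17:8965678-8965957, minus strand for PIK3R5, chr1:101236769-101237048, plus strand for S1PR1 and chr4:144019351-144019630, minus strand for GYPB.
PLEK: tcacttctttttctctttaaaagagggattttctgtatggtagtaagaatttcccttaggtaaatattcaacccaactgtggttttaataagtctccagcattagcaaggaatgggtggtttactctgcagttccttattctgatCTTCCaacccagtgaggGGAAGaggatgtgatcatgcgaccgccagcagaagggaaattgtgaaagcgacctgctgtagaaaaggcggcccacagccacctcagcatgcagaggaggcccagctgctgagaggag
PIK3R5: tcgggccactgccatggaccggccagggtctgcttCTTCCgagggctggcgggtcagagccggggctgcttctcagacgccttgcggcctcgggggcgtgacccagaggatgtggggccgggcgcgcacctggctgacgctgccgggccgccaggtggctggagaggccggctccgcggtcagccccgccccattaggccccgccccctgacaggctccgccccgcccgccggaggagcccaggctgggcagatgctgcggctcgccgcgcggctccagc
S1PR1: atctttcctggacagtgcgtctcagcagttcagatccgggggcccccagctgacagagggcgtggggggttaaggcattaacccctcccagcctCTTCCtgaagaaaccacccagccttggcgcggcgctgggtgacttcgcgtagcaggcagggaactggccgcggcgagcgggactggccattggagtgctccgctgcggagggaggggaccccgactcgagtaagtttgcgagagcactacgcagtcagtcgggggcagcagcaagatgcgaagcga
GYPB: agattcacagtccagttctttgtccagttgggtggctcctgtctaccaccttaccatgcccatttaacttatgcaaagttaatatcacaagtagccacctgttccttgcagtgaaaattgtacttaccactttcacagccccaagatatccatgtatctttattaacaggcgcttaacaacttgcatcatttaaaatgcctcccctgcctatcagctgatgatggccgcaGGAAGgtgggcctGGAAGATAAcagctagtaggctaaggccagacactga
None of the 4 contains the longer ETS sequence. The GYPB promoter has the GATA sequence across its start, overlapping the second of its 2 inner ETS sequences. These letters describe the windows and do not show that a factor binds there.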

How the data were processed

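Per the labels' protocols, TRIzol was used for RNA and the TruSeq stranded mRNA kit for libraries. The authors deposited raw counts of reads per gene. HISAT2, SAMtools, HTSeq and GRCh38 are named in the submitters' processing notes, with no versions of the tools. Neither the annotation nor whether reads were counted by strand is given in the sources used here. Reads of overlapping and antisense genes may therefore be lost or given to the wrong gene. The table has 20833 gene identifiers, of which 20801 were named from the gene name table and 31 more from GENCODE 29, which also gave positions. The 5 entries for reads given to no gene (35.28% to 40.76% of reads here) were left out of library sizes and tests. They include reads without a unique alignment (12.0% to 16.54%) and ambiguous reads (1.41% to 2.92%).

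Counts were tested with edgeR 4.0.16 in R 4.3.3: filterByExpr on the group, TMM scaling, 1 mean per group over all 18 libraries, a two-sided quasi-likelihood F test and Benjamini-Hochberg adjustment over 12262 genes at 0.05. Each SE was taken as the absolute log2 difference over the root of F. Depth sets the precision: intervals and floors of 3 reads cover counting error only, because amplified copies of 1 molecule were not told apart. CPM here are counts over the TMM-scaled library size. Replicates of each group differed by more than sampling noise. With 3 libraries a side, exact permutation of labels allows no p below 0.1, and it was not used. The script was tested on simulated data.

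The members, gene lists and rules were chosen with earlier results of these data known. Named genes are ETV6, the 12 largest rises and 12 largest falls past the threshold (mean log2 CPM of at least 1 over the 6 libraries, a symbol, groups that do not overlap), up to 3 members per list with the smallest adjusted p, the 6 largest changes between vectors in each direction, and the 6 largest rises and falls called with all 3 vectors. The 6 largest changes in each direction in the blocked test were added after the data were seen, as were genes marked so in the text, and not every gene the rule picks is reported here. Lists are described by counts and medians only.

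For pairing, deviations of libraries from their group means were correlated across genes, which are not independent replicates. Same-numbered ETV6 and EV libraries of 1 genotype correlated at 0.711 to 0.853 in 6 pairs and others at -0.619 to 0.028, so the block was fitted to the change between vectors. The labels do not say what a number marks. Alternatives were RLE size factors, no filter on low counts, DESeq2 1.42.0, limma-voom (limma 3.58.1) without and with genotype and number as a random source, only the libraries compared, a replicate block, leaving out each library, and leaving out both libraries that stood apart. The block and limma-voom were also run without the R369W libraries. The second deposited file, a list of libraries, was not used.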

Additional observations from a re-analysis of the deposited data

Results flagged for a closer look

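For 3 genes the genotype difference itself differed between the ETV6 vector and EV, by the edgeR test of that difference. The difference with ETV6 minus that with EV was -1.79 for FCHSD2, -1.44 for ZDHHC3 and -1.42 for EZH2 on the log2 scale, with adjusted p of 9.66e-04, 9.66e-04 and 4.17e-03. All 3 were called in every alternative, including without each of the 12 libraries. Each group has 3 libraries, too few to test single libraries as outliers.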

How the results depend on the processing

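The count of 310 genes kept its direction, with more genes higher than lower, under every alternative, but not its size. It was 307 with RLE size factors, of which 304 were among the 310, and 232 without the filter on low counts. It moved to 741 with DESeq2 (309 of the 310 among them), 161 with limma-voom, 80 with only the 6 libraries compared, and 186 without unedited library 4 and knockout library 2 together. Leaving out 1 library gave 116 to 310. With the replicate number as a block over the 18 libraries, 1002 genes were called, 563 higher and 439 lower, and 303 of the 310 were among them. With genotype and number as a random source in limma-voom 156 were called (estimated correlation 0.313). Both join knockout R369W libraries to unlike ones of the same number, so they were repeated over the 12 EV and ETV6 libraries, chosen after seeing the data. The replicate block then called 2164 genes (1119 higher, 1045 lower; 307 of the 310), and limma-voom called 232 with the random source (correlation 0.683) and 136 without it. Knockout and unedited ETV6 libraries share only the numbers 2 and 4, whose deviations correlated at 0.421 to 0.427, against -0.535 to 0.303 for the 7 other pairs. These 2 pairs are too few to decide whether a number is shared across genotypes, and the labels do not say. The 3 genes whose genotype difference changed between vectors were called in each alternative. Their count was 13 with DESeq2, 4 with the replicate block over the 18 libraries, 138 with the replicate block within genotype, and 3 in all others, leaving out each of 12 libraries included. No named gene reversed its direction, and 35 of the 310 calls held in every alternative. A level under 0.225 to 0.238 CPM, depending on the library, rests on fewer than 3 reads.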

Other observations

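These genes of the core were named after their values were seen and stand for no group. The inositol trisphosphate receptors ITPR1 and ITPR3 measured 72.8 and 15.4 CPM on average in unedited and 113.6 and 43.3 CPM in knockout cells with ETV6, and the plasma membrane calcium pump ATP2B4 measured 36.4 and 77.1 CPM. Also in the core, CCNA1, the A-type cyclin of germ cells and leukemia, averaged 8.398 ± 4.80 CPM against 65.1 ± 25.6 CPM (SD, n = 3; log2 2.95, adjusted p = 8.57e-03). The enzymes GPAT3 and LPCAT2, which build and remodel glycerolipids, averaged 7.54 and 13.5 CPM in unedited and 20.8 and 31.6 CPM in knockout cells.

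By chromosome, the median log2 difference lay between -0.10 (chromosome 18) and 0.04 (chromosomes 12 and 16). Among 152 windows of 20 Mb, the one on chromosome 12 from 20 to 40 Mb had a median of 0.25 over 49 genes with ETV6, 0.34 with EV and 0.16 with R369W, with 0 genes called higher and 1 lower.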
